A study of Ailuropoda melanoleuca with 25 samples.

Results

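Control day 16 was compared with stage I day 8 in cells of the giant panda, Ailuropoda melanoleuca, whose primary fibroblasts were reprogrammed into induced pluripotent stem cells. The 4 libraries, 2 for each group, were chosen by their sample titles out of 25 in all. All 4 carry primary fibroblast cells as their source. Stage I day 8 is the earlier of the labelled time points of stage I, and control day 16 is the group set beside day 16 cells that received A83-01, an inhibitor of TGF-beta type I receptors. The labels give no composition for the control medium and do not say which fibroblast line or vector treatment the day 8 and day 16 cultures had, nor what the line names LB and XR stand for. The groups therefore differ both in day and in label, and these cannot be told apart. Other groups enter where they show a difference: LB and XR primary fibroblasts (PF, 2 libraries each), LB and XR GPiPSC (the established lines, 3 and 2 libraries), stage I day 24, stage II day 8 and A83-01 day 16 (2 libraries each). The fit, the shared deviation below and the plot of levels also hold 3 groups labelled with BACL, of 2 libraries each, which are BACL-CHIR99021, BACL control and BACL LB GPiPSC. CHIR99021 is an inhibitor of the kinase GSK3, and the labels do not say what BACL stands for. The labels do not state whether replicates came from separate cultures, and the spread behind every p-value may thus be partly or wholly technical.

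Reprogramming turns a differentiated cell into a pluripotent one by raising a small set of transcription factors. In fibroblasts the mesenchymal programme is known to be put down early, an epithelial programme follows, and the endogenous pluripotency network comes on late. TGF-beta signalling sustains the mesenchymal state, and inhibitors of its receptors are commonly added for that reason. The deposited tables hold 22924 gene models under identifiers of a genome assembly, without gene names, and 0 of these identifiers occurred in the RefSeq table used here. The fibroblast, epithelial, pluripotency, cell cycle, TGF-beta, neural, immune and endothelial genes listed for this work thus matched no model, and the cell type of the 4 libraries could not be checked against markers. Gene groups are instead given by how models stood in established GPiPSC against PF, which uses none of these 4 libraries.

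Total estimated counts were 12840244 and 13870366 in stage I day 8 and 11830242 and 11693617 in control day 16, within the range of 8627983 to 14890260 over the series. The 2 control day 16 libraries were close to each other, with a Pearson correlation of 0.991 in log2 CPM (counts scaled to the TMM-corrected library total) across models and 3.70% of models over 2-fold apart. Those of stage I day 8 correlated at 0.981, with 11.2% of models over 2-fold apart. Counts of both pairs differed beyond sampling noise (chi-square divided by its degrees of freedom 2.25 at day 16 and 19.2 at day 8). The day 8 libraries also stood at unequal distances from day 16: 49.9% and 51.2% of models were over 2-fold apart between day 8 replicate 1 and the day 16 libraries, against 36.9% and 38.8% for replicate 2. The first principal component of replicate deviations in the other 10 groups (32.2% of their spread) also separated the groups compared. In SD units its scores were -1.82 and -1.03 in stage I day 8 and 0.50 and 0.60 in control day 16. Among the other groups they differed most between replicates of stage I day 24 (-2.04 and -0.23) and XR PF (0.74 and -1.03). It is called the shared deviation below, though its score differed less between replicates of the remaining groups. The results below are therefore also given without day 8 replicate 1 and with that score as a covariate, 2 checks of which the covariate was added after the data were seen.

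Many gene models differed between control day 16 and stage I day 8, in both directions. Of 17225 models with enough counts to test, 3962 (23%) were higher and 3488 (20.2%) lower in control day 16 at an adjusted p under 0.05 in edgeR's quasi-likelihood test. In bulk RNA a change in the number of cells of a type and a change in RNA per cell cannot be told apart. Over 2-fold were 3465 of the models called higher and 2697 of those called lower, over 4-fold 1681 and 735, and over 8-fold 598 and 276. Of the models called higher 99 had no count in stage I day 8, and of those called lower 30 had none in control day 16. With these at the bound set by a floor of 3 counts per library, 506 and 251 were over 8-fold. The median log2 fold change was 1.81 among the models called higher (1.77 at the bound) and -1.36 among those called lower (-1.36 at the bound), against 0.05 over all tested. In 3961 of the 3962 and in 3487 of the 3488, no day 16 library overlapped a day 8 library. Such a lack of overlap held in 7295 and 6693 of all models tested.

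**Figure D1:**
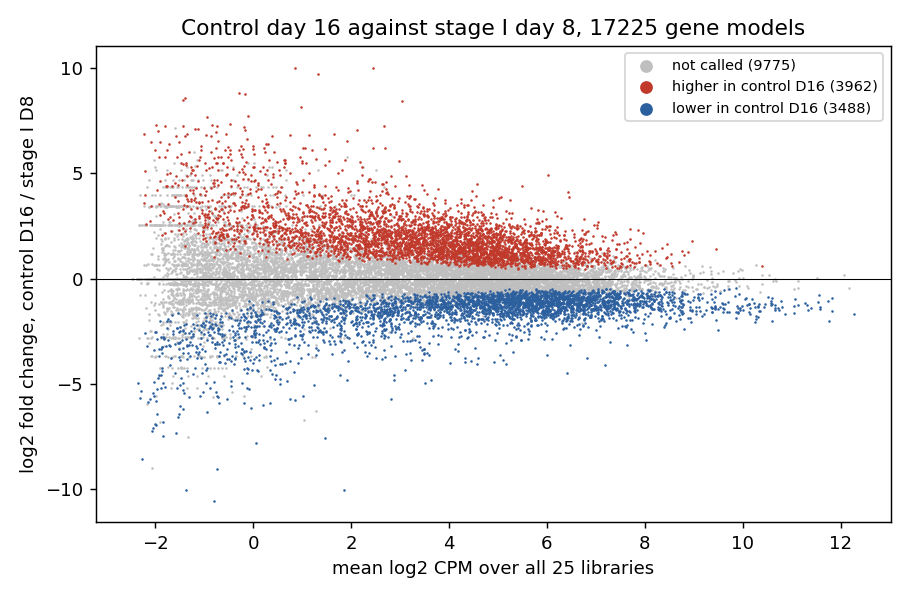
Log2 fold change of control day 16 over stage I day 8 (y axis) against mean log2 CPM over all 25 libraries (x axis), 1 point per gene model tested. Red points are the 3962 models called higher and blue points the 3488 called lower at an adjusted p under 0.05. Models called higher sit at lower mean levels than models called lower.

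Leaving out any one of the 4 libraries, also either of control day 16, lowered the number of calls. How far this goes with a group left at 1 library was not tested. The number fell most without stage I day 8 replicate 1. Without it there were 1020 higher and 1130 lower calls, of which 1015 and 1123 were also made with all libraries. Without replicate 2 the numbers were 3524 and 3059. With the covariate for the shared deviation 479 models rose and 590 fell, of which 425 and 479 were called in the same direction without it and 1 in the opposite direction. The part of the shared deviation in the difference was not tested, and its pattern held 48.9% of the squared difference between the group means. Called in the same direction in all of 7 fits (all libraries, each of the 4 left out, DESeq2, and the 4 libraries alone) were 960 models higher and 998 lower, and 360 and 402 of these were also called with the covariate.

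The balance between directions depended on the scaling and the fit. TMM factors were 0.622 and 0.695 in stage I day 8 and 0.912 and 0.907 in control day 16. On deposited TPM, which is not corrected for library composition, the median of all models moved to 0.45 for log2(TPM + 1) and 0.68 for log2(TPM + 0.1), and 82.3% and 83.7% of calls were higher, against 53.2% with TMM. The majority turned to lower calls with RLE (48.4% higher), with DESeq2 (48.3%), without day 8 replicate 1 (47.4%) and with the covariate (44.8%). Directions in what follows are on the TMM scale and stand relative to the bulk of models.

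**Figure D2:**
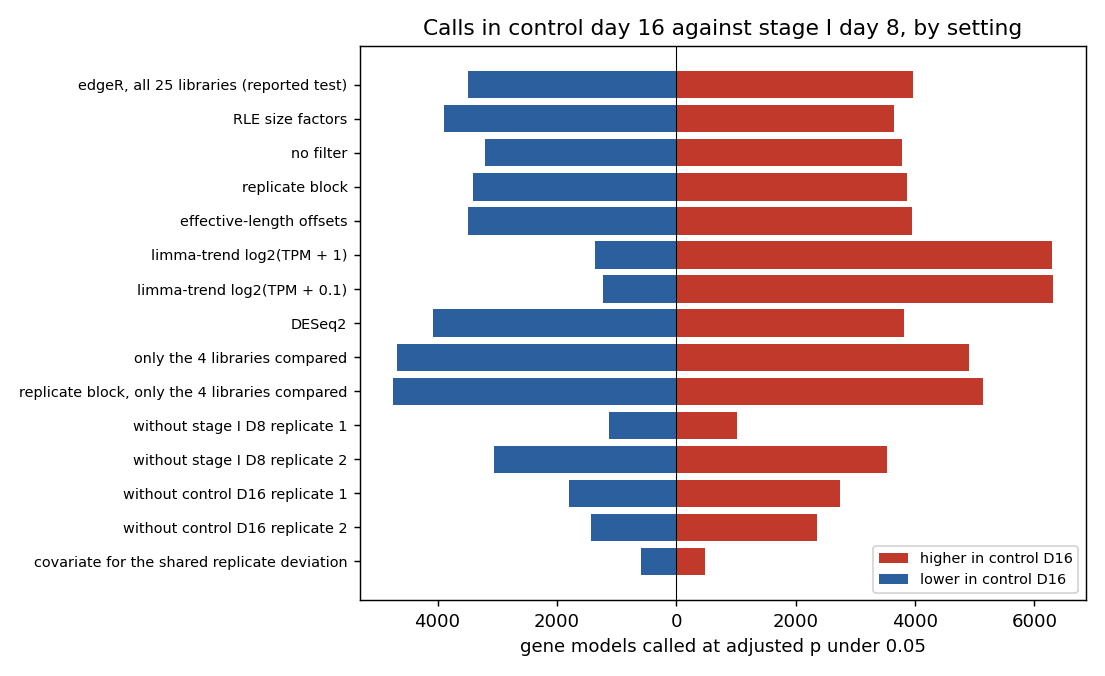
Gene models called higher (red, right) and lower (blue, left) in control day 16 against stage I day 8 at an adjusted p under 0.05, 1 row per fit (x axis, number of models). The bars shrink most without stage I day 8 replicate 1 (1020 and 1130) and with the covariate (479 and 590), and the TPM rows lean to higher calls.

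The models named here have the largest fitted fold changes among called models with at least 10 counts summed over the lower group, a mean of at least 10 CPM in the higher group and no overlap. The model evm.model.HIC_ASM_10.104.1 (coding length 1998 bases) had 6 and 4 counts in the stage I day 8 libraries and 792 and 888 in control day 16. In TMM-scaled CPM this was 0.751 and 0.415 at day 8 and 73.4 and 83.8 at day 16, a log2 fold change of 7.08 ± 0.80 (SE; adjusted p = 1.84e-05). It was not found in PF (mean 0 CPM in LB and in XR), reached 50.7 ± 21.8 CPM (SD, n = 2) in A83-01 day 16 and 124 CPM in stage I day 24, and was at 2.04 CPM in stage II day 8. Its level in control day 16 thus lay among those of the other 2 later cultures.

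The model evm.model.HIC_ASM_3.2200 (1965 bases) stood at 6.38 and 8.09 CPM in stage I day 8 and at 743 and 934 CPM in control day 16. Its log2 fold change was 6.85 ± 0.74 (SE; adjusted p = 2.40e-05), and 4.998 with the covariate. Unlike the model above it was present in fibroblasts, with means of 73.0 CPM in LB PF and 35.7 CPM in XR PF. It was at 1431 CPM in A83-01 day 16 but at 11.6 CPM in stage I day 24 and 0.104 CPM in stage II day 8. Both day 16 groups were therefore high and every stage group low.

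Among models that fell, evm.model.HIC_ASM_13.760 (1287 bases) went from 507 and 513 CPM in stage I day 8 to 11.4 and 7.73 CPM in control day 16. The log2 fold change was -5.73 ± 0.69 (SE; adjusted p = 2.55e-05), and -6.65 with the covariate. Day 8 was its highest group: PF means were 0.369 CPM in LB and 0.816 CPM in XR, A83-01 day 16 was at 8.15 CPM and stage I day 24 at 20.5 CPM. The model evm.model.HIC_ASM_3.685 (3474 bases) went from 1742 and 1424 CPM to 32.6 and 27.6 CPM, a log2 fold change of -5.72 ± 0.44 (SE; adjusted p = 2.53e-07) and -5.09 with the covariate. It was at 4.25 CPM in LB PF, 74.1 CPM in XR PF, 1.57 CPM in A83-01 day 16 and 10.1 CPM in stage I day 24, so day 8 was again the highest. These 4 models kept their call in every fit run.

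**Figure D3:**
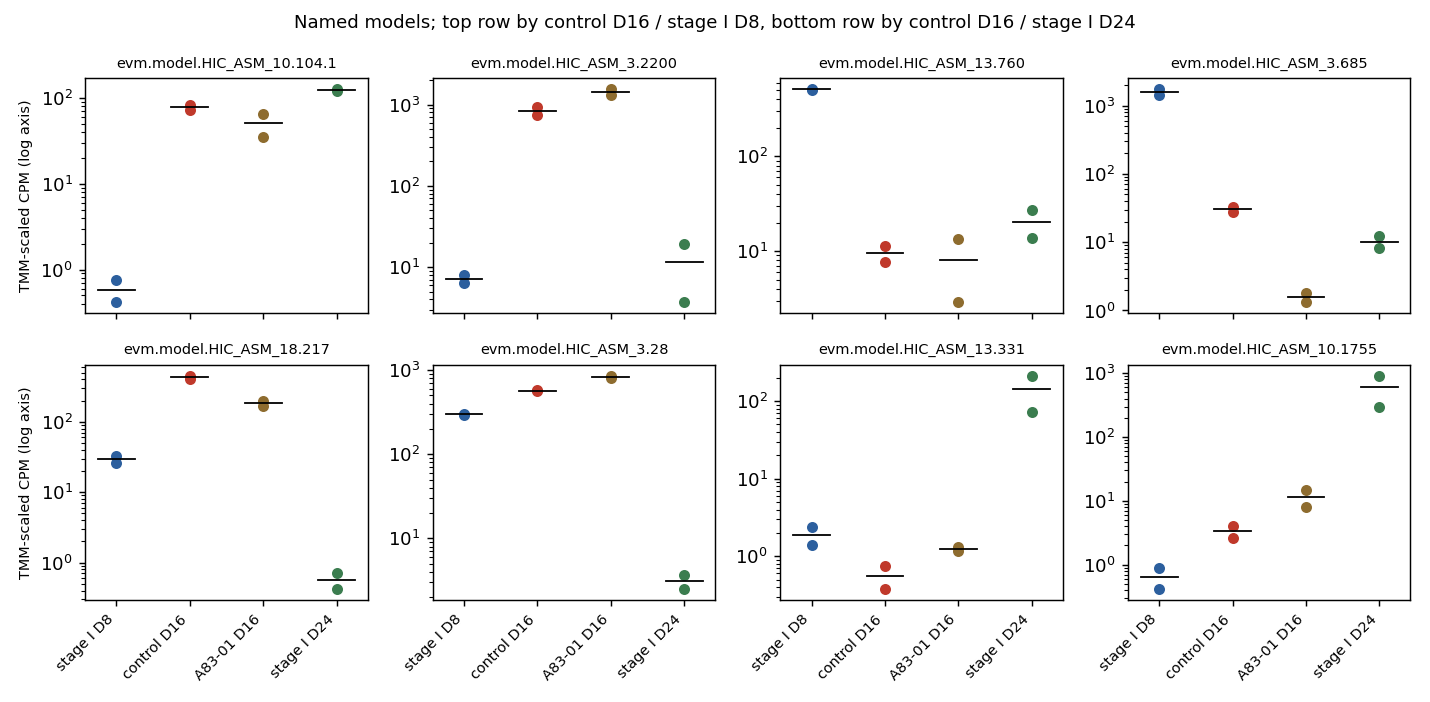
TMM-scaled CPM (log y axis, a scale of its own in each panel) of the 8 named gene models in stage I day 8, control day 16, A83-01 day 16 and stage I day 24. Points are libraries and bars group means. In the top row control day 16 and stage I day 8 do not overlap, and in the bottom row control day 16 and stage I day 24 do not overlap.

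A few models were at or near 0 in one group and plainly present in the other. They were picked after their values were seen, by a limit of 3 counts or fewer in both libraries of one group and at least 10 CPM in both of the other. The model evm.model.HIC_ASM_10.440 (1785 bases) had 0 and 1 count in stage I day 8 and 665 and 798 counts in control day 16. It had 516 and 460 counts in A83-01 day 16 and 6 and 35 in stage I day 24, and it belongs to the models higher in GPiPSC than in PF. The model evm.model.HIC_ASM_8.1378 had 3 and 2 counts in stage I day 8 and 120 and 111 in control day 16. It belongs to the models higher in PF than in GPiPSC. In the other direction evm.model.HIC_ASM_4.1213 had 482 and 662 counts in stage I day 8 and 3 and 3 in control day 16, and evm.model.HIC_ASM_10.280 had 127 and 119 against 1 and 1. The last of these had no count in either library of stage I day 24 or A83-01 day 16. Their adjusted p-values (edgeR) were 1.98e-06, 0.000372, 4.85e-07 and 0.000367. All 4 were called in all 7 fits, and all but evm.model.HIC_ASM_10.280 with the covariate. No fold is given, since a count of 3 is the floor (0.278 to 0.375 CPM in these libraries).

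The make-up of the most abundant RNA also differed. A model on scaffold HIC_ASM_13 (4329 bases) was the top one in stage I day 8, with 3.98% and 3.92% of all counts, and had 1.56% and 1.47% in control day 16. Per length it stood at 4547 and 4632 TPM at day 8 and 2094 and 2004 TPM at day 16. Its log2 fold change of -1.85 ± 0.45 (SE) was called in all 7 fits but not with the covariate. In control day 16 the top place went to a model on scaffold HIC_ASM_16 (1986 bases), at 2.98% and 3.16% of counts against 1.48% and 1.39% at day 8. After scaling that gain was a log2 fold change of 0.63 ± 0.23 (SE), called with the covariate but not in all 7 fits. Both models are PF-high, which means over 2-fold and called lower in GPiPSC than in PF for LB and for XR.

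Between the group means 29.98% of all counts moved from one model to another. The 10 largest losses made 19.0% of the loss and the 10 largest gains 20.1% of the gain, ranked on the unscaled share of counts. What follows ranks on TMM-scaled CPM instead, which need not pick the same models. Of the 10 that gained most, 8 were PF-high and none GPiPSC-high, the converse list. Of the 10 that lost most, 9 were PF-high and none GPiPSC-high. Over all tested models, which are less abundant, 18.2% were PF-high and 16.5% GPiPSC-high. In A83-01 day 16 the mean was above that of stage I day 8 for 9 of the 10 gains and below it for all 10 losses. In stage I day 24 it was above for 1 of the 10 gains and below for 9 of the 10 losses. These models were picked on their stage I day 8 and control day 16 values. A reading against stage I day 8 is thus not independent of that choice, and the share over all models was not computed. With the covariate 7 of the gains and 4 of the losses were called.

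A neighbouring pair on scaffold HIC_ASM_7, 1077 and 627 bases long, gave 2 of the steepest of these gains. The longer one was at 350 and 443 CPM in stage I day 8 and at 5478 and 5896 CPM in control day 16 (log2 fold change 3.84 ± 0.40 SE). The shorter one rose from 464 and 518 CPM to 4650 and 4936 CPM (3.29 ± 0.26 SE). Both were under 1 CPM in LB PF and XR PF, near 1220 and 1066 CPM in A83-01 day 16 and at 248 and 372 CPM in stage I day 24, so control day 16 was the highest of these groups. Both were called in all 7 fits and with the covariate. Counts of neighbouring models that are alike in sequence could be split between them, which these tables cannot show. The steepest fall among the 10 largest losses of CPM was also on HIC_ASM_7 (735 bases). It went from 5962 and 5024 CPM to 266 and 225 CPM (log2 fold change -4.48 ± 0.44 SE). That model was at 593 CPM in LB PF and 6738 CPM in XR PF, and at 10.4 CPM in A83-01 day 16.

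Models that mark established GPiPSC stood higher in control day 16 than in stage I day 8 relative to all models, an order that log2(TPM + 1) turned round. Of 2847 GPiPSC-high models 715 (25.1%) were higher and 291 (10.2%) lower, against 23% and 20.2% of all models tested. The median log2 fold change was 0.43, against 0.05 over all models. In this list 344 members had no count in stage I day 8 and 220 none in control day 16, and with those models at the bound the median was 0.20, against 0 over all models. Without day 8 replicate 1 the fitted median was 0.39. On log2(TPM + 1) it was 0.33, below the 0.45 of all models on that scale, and on log2(TPM + 0.1) it was 0.82, above the 0.68 of all models. With the covariate 123 were higher and 110 lower (4.32% and 3.86%, against 2.78% and 3.43% of all models), with a median of 0.09.

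Models that mark fibroblasts leaned to lower levels in control day 16 relative to all models. Of 3128 PF-high models 594 (19.0%) were higher and 817 (26.1%) lower in control day 16, with a median of -0.20. On TPM the sign turned, to 0.41 with log2(TPM + 1) and 0.52 with log2(TPM + 0.1), both below the median of all models on the same scale. Without day 8 replicate 1, 196 (6.27%) were higher and 365 (11.7%) lower, against 5.92% and 6.53% of all models. The median was -0.15 there. With the covariate 122 were higher and 244 lower (3.90% and 7.80%), against 2.78% and 3.43% of all models. In both settings PF-high models were thus called more often than all models in either direction. Each list thus had members that rose and members that fell, and neither moved as a block.

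Placed between the mean of PF (0%) and that of GPiPSC (100%) on GPiPSC-high models, stage I day 8 stood at 8.08% and 13.2% (replicates 1 and 2) and control day 16 at 25.2% and 23.9%. The libraries did not overlap. A83-01 day 16 stood at 55.2% and 39.7% and stage I day 24 at 57.4% and 65.2%. With 2 libraries against 2, a permutation of labels cannot reach a p of 0.05, and none was computed. On PF-high models stage I day 8 stood at 1.81% and 0.288% and control day 16 at 3.62% and 3.27%, all near PF, while stage I day 24 stood at 26.1% and 22.3%. On TPM the places on PF-high models turned round, with group means of 20.4% in stage I day 8 and -2.74% in control day 16 for log2(TPM + 1). On GPiPSC-high models the order held on log2(TPM + 1), at -6.66% in stage I day 8 and 18.4% in control day 16. These places are not taken relative to all models, whose median log2 fold change was itself 0.45 on that scale.

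**Figure D4:**
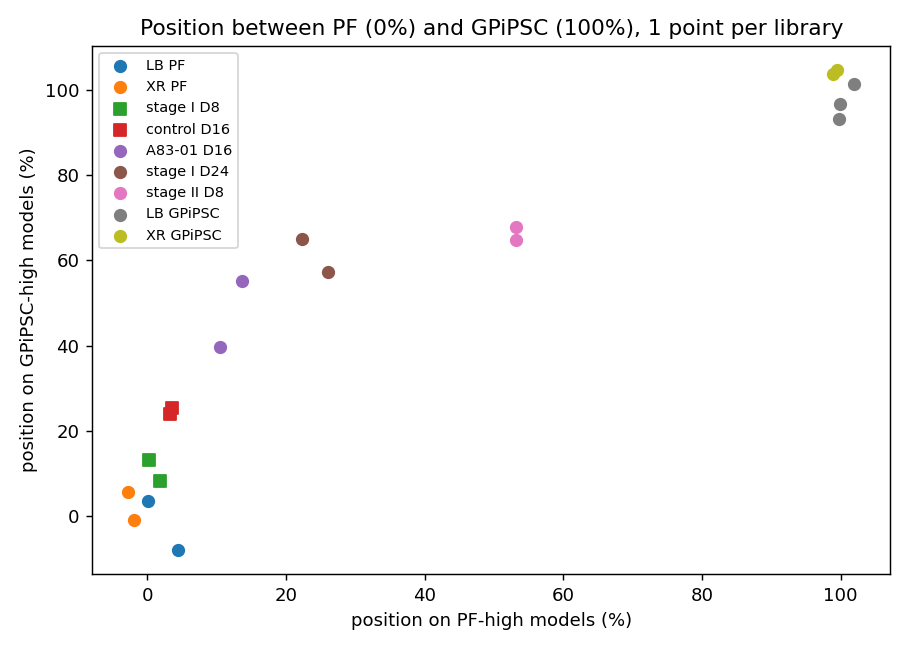
Position of libraries between the mean of PF (0%) and of GPiPSC (100%) on models higher in PF (x axis) and on models higher in GPiPSC (y axis), from TMM-scaled log2 CPM. Each point is a library, and the groups labelled with BACL are not plotted. Squares are stage I day 8 (8.08% and 13.2% on the y axis) and control day 16 (25.2% and 23.9%), and circles are the other groups plotted. Control day 16 lies above stage I day 8 and below A83-01 day 16 and stage I day 24 on the y axis, and both squares lie near 0 on the x axis.

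Levels of the called models in groups outside the comparison were then read. Among models called higher, the median log2 CPM was 2.10 and 2.79 in stage I day 8 and 4.33 and 4.44 in control day 16. It was 4.19 and 4.16 in LB PF, 4.44 and 4.24 in A83-01 day 16 and 3.86 to 4.14 in LB and XR GPiPSC. Low values were shared by both stage II day 8 libraries (2.24 and 1.86), by stage I day 24 replicate 1 (2.47) and by XR PF replicate 2 (2.97, against 4.29 in replicate 1). Stage I day 24 replicate 2, at 3.60, lay between these and the other groups and near its own median of 3.69 over all models. Control day 16 therefore stood near most other groups on these models. Among models called lower the medians were 6.26 and 5.97 in stage I day 8, 4.84 and 4.77 in control day 16, 6.12 and 5.33 in stage I day 24 and 6.03 and 6.27 in stage II day 8.

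**Figure D5:**
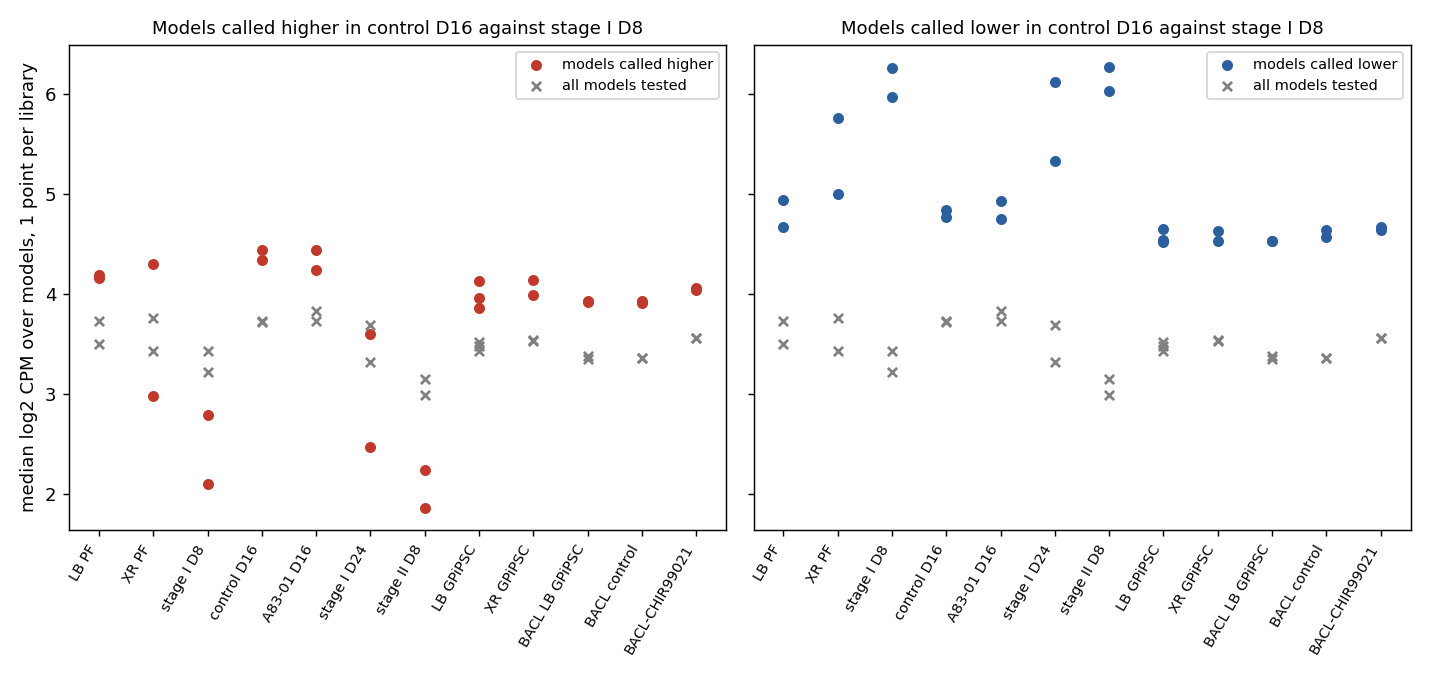
Median log2 CPM (y axis) of models called higher (left, red) and lower (right, blue) in control day 16 against stage I day 8, 1 point per library in 12 groups (x axis), with the median of all models tested as grey crosses. Stage II day 8, stage I day 24 replicate 1 and XR PF replicate 2 lie on the side of stage I day 8, and stage I day 24 replicate 2 lies apart from replicate 1.

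Those models also differed between the replicates of some other groups and little in others. Replicate 1 minus replicate 2 had a median log2 difference of -1.01 over models called higher and 0.81 over models called lower in stage I day 24. It was 1.01 and -0.76 in XR PF, -0.53 and 0.31 in stage I day 8, and -0.08 and 0.05 in control day 16. In LB PF it was -0.02 and 0.23 and in A83-01 day 16 0.15 and -0.16. On these models the replicates of stage I day 24 and of XR PF were further apart than those of either group compared.

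A83-01 day 16 and stage I day 24, each against the mean of PF, share no library with the comparison. Of the 3962 models called higher, 993 (25.1%) were higher and 125 (3.15%) lower in A83-01 day 16 than in PF, against 18.8% and 10.3% of all models tested. Of the 3488 called lower, 341 (9.78%) were higher and 684 (19.6%) lower. More of the models were thus in the same direction in A83-01 day 16 than in the opposite one. Of the models called higher with the covariate, 67.0% were higher in A83-01 day 16 than in PF and 1.46% lower. Of those called lower with it, 19.0% were higher and 41.9% lower. The test against PF was itself fitted without the covariate.

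Stage I day 24 read differently. Of the 3962 models called higher, 593 (14.97%) were higher and 1888 (47.7%) lower in stage I day 24 than in PF, against 31.1% and 23.1% of all models. Of the 3488 called lower, 1798 (51.5%) were higher and 323 (9.26%) lower. This opposition was also present without day 8 replicate 1, at 24.2% higher and 42.2% lower among models called higher. Among models called with the covariate it was not seen, at 42.2% higher and 28.0% lower for those called higher. For those called lower the shares were 32.0% and 33.7%. The covariate changed only the choice of models, since the test against PF was fitted without it. Stage I day 24 replicate 1 scores -2.04 and replicate 2 -0.23 on the shared deviation, and the part of that deviation in this reading was not tested.

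The direct test of control day 16 against stage I day 24 shows which models differed between these later cultures. In it 4045 models (23.5%) were higher and 4616 (26.8%) lower in control day 16, 3535 and 3931 of them over 2-fold and 627 and 980 over 8-fold (601 and 812 with models that have no count in one group at the bound). Without stage I day 24 replicate 1 the numbers were 2229 and 2992, and with the covariate 2383 and 3115. Of the GPiPSC-high models 209 (7.34%) were higher and 1392 (48.9%) lower in control day 16, with a median of -1.28 (-1.08 at the bound), and of the PF-high models 1272 (40.7%) were higher and 382 (12.2%) lower, with a median of 0.63. On log2(TPM + 1) 69.3% of all calls were higher, against 46.7%. This test shares the control day 16 libraries with the comparison above, so the 2 are not independent.

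The model evm.model.HIC_ASM_18.217 (1317 bases) was at 402 and 450 CPM in control day 16 and at 0.422 and 0.717 CPM in stage I day 24, a log2 fold change of 9.47 ± 1.09 (SE; adjusted p = 3.12e-05). In stage I day 8 it was at 25.8 and 32.8 CPM and in A83-01 day 16 at 167 and 198 CPM. The model evm.model.HIC_ASM_3.28 (2709 bases) was at 566 and 573 CPM against 3.69 and 2.51 CPM (7.54 ± 0.69 SE; adjusted p = 5.15e-07), with 301 and 292 CPM in stage I day 8. Both were thus expressed at day 8 and in both day 16 groups, and nearly absent at stage I day 24.

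Lower in control day 16 was evm.model.HIC_ASM_13.331 (276 bases), at 0.741 and 0.377 CPM in control day 16 and 212 and 72.0 CPM in stage I day 24 (-7.96 ± 0.78 SE; adjusted p = 2.32e-06). It was at 1.38 and 2.39 CPM in stage I day 8. The model evm.model.HIC_ASM_10.1755 (666 bases) was at 4.08 and 2.64 CPM against 911 and 298 CPM (-7.49 ± 0.66 SE; adjusted p = 2.25e-07), and at 0.876 and 0.415 CPM in stage I day 8. Both were far below stage I day 24 in control day 16 and in stage I day 8. Control day 16 lay below stage I day 8 for the first and above it for the second, with no overlap, and stage I day 24 replicate 1 was well above replicate 2 for both. Without stage I day 24 replicate 1 the log2 fold changes were -6.98 and -6.47.

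Models called higher tended to be long and those called lower abundant. The median coding length was 1482 bases among models called higher, 1065 among those called lower and 1171 over all tested. In the longest quintile of models 34.8% were higher and 14.8% lower, and in the shortest quintile 15.6% and 21.7%. Within stage I day 8, replicate 1 minus replicate 2 had a median log2 difference of -0.14 in the longest quintile and 0.07 in the shortest. With the covariate 3.11% of the longest quintile were higher and 4.88% lower, so the lean to higher calls in long models was not there. In the most abundant quintile, by mean log2 CPM over all 25 libraries, 15.4% were higher and 39.9% lower. The median of that level was 3.61 among models called higher, 5.005 among those called lower and 3.39 over all tested. Shares by level were not computed with the covariate.

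Calls were also unevenly spread over the 21 scaffolds with at least 100 models tested. The median log2 fold change was above 0 on 13, below 0 on 7 and at 0 on 1. It was lowest on HIC_ASM_16, at -0.36, where 207 of 1346 models were higher and 394 lower (15.4% and 29.3%). It was highest on HIC_ASM_18, at 0.58, where 58 of 180 were higher and 18 lower (32.2% and 10%). Over the 4 pairings of a day 16 with a day 8 library the median ran from -0.47 to -0.24 on HIC_ASM_16 and from 0.37 to 0.71 on HIC_ASM_18, so each pairing had the same sign. With models of no count at the bound the medians were -0.35 and 0.49, and with the covariate -0.04 and 0.10. These medians were not computed on TPM.

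Models next to one another on a scaffold, by the number in their identifiers, tended to share a direction. No coordinates were at hand, and models that were not tested were skipped. Among tested neighbours of a model called higher 37.3% were called higher too, against 23% of all models, and among neighbours of a model called lower 35.3% were lower, against 20.2%. With the covariate the shares were 12.7% against 2.78% and 14.8% against 3.43%. Runs of at least 4 neighbouring tested models called in one direction numbered 150 higher, with 722 models, and 115 lower, with 568. The longest, on HIC_ASM_0, held 17 models called higher, from evm.model.HIC_ASM_0.969 to evm.model.HIC_ASM_0.1003, named here after their values were seen. No range of fold is given for it, since some of its models had no count in stage I day 8. The median over its models of the mean level was 1.76 CPM in stage I day 8 and 16.3 CPM in control day 16. It held 5 GPiPSC-high and 6 PF-high models, all called higher by the definition of a run. Over all tested models 16.5% were GPiPSC-high and 18.2% PF-high. In this run 6 models were called in all 7 fits and 2 with the covariate. Over models called in all 7 fits the longest run of higher calls held 5 models. With the covariate the longest run of higher calls held 3 and that of lower calls 4.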

How the data were processed

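Libraries of total RNA were built with NEBNext Ultra reagents, per the labels' protocols. Reads were quantified with kallisto, a pseudoaligner, per the submitters' processing notes. Its version is not given in the sources used here, nor is its index. For every model the deposited tables hold estimated counts and TPM beside length and effective length, per the file headers. Estimated counts as deposited were rounded to whole numbers. The deposited TPM values, scaled by the authors' tool to effective length and library total, served for alternatives.

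All 25 libraries in 12 groups entered 1 edgeR 4.0.16 fit (R 4.3.3; filterByExpr, TMM, robust quasi-likelihood F test, 13 residual degrees of freedom), adjusted by Benjamini-Hochberg over 17225 models and called under 0.05. The spread is pooled over groups that vary unequally. Replicates lay close in control day 16 and furthest apart in stage I day 24, LB PF and XR PF, and the 4 libraries of control day 16 and stage I day 8 gave more calls when fitted alone. SE comes from the F statistic, and log2 CPM has a prior count of 2. GPiPSC-high and PF-high models were called and over 2-fold changed in the same direction in LB and in XR. Of the tested models 92.6% have a length that is a multiple of 3, hence "coding length".

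Without gene names, the rule for named models took the 2 called models per direction with the largest fold change, at least 10 counts summed over the lower group, a mean of at least 10 CPM in the higher and no overlap, for control day 16 against stage I day 8 and against stage I day 24. Others are given by scaffold and length. The comparison, lists and rules were chosen with earlier results of these data known. The alternatives were RLE, DESeq2 1.42.0, no filter, effective-length offsets, limma-trend (limma 3.58.1) on log2(TPM + 1) and log2(TPM + 0.1), only the libraries compared, the replicate number as a block, and each library left out. The covariate, the lists without each stage I day 8 library, the call in all fits and the bound for models with no count were added after the data were seen.

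On simulated counts of 16510 models, edgeR recovered 0% of 1.5-fold, 6% of 2-fold, 70% of 4-fold and 100% of 8-fold differences with 2 false calls. Those counts had 1 spread per model for all groups, unlike the data. Only 50 models were changed at each fold, against 7450 called in the data, so those shares do not carry over to the comparison. A floor of 3 counts was 0.278 to 0.375 CPM in the 4 libraries and covers counting error only.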

Additional observations from a re-analysis of the deposited data

Results flagged for a closer look

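The differences from stage I day 8 were not alike in control day 16 and stage I day 24, by the direct test between these groups, in which stage I day 8 cancels. In that test 8661 models were called, 5221 without stage I day 24 replicate 1 and 5498 with the covariate. The named models evm.model.HIC_ASM_18.217 and evm.model.HIC_ASM_3.28 differed by log2 fold changes of 9.47 and 7.54, being high in control day 16, and evm.model.HIC_ASM_13.331 and evm.model.HIC_ASM_10.1755 by -7.96 and -7.49, being high in stage I day 24. No group had 4 or more libraries, so none could be searched for a library that stands apart from its group.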

How the results depend on the processing

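Leaving out 1 library at a time gave 1020 to 3524 models higher and 1130 to 3059 lower in control day 16 than in stage I day 8, the fewest without stage I day 8 replicate 1. Against stage I day 24 it gave 2229 to 5002 higher and 2992 to 4549 lower, the fewest without stage I day 24 replicate 1. A group left with 1 library is taken to vary as the other groups do. With the covariate the calls were 479 and 590 against day 8, and 2383 higher and 3115 lower against day 24. With the 4 libraries alone 2249 models were higher and 2706 lower than in stage I day 24. On log2(TPM + 1) and log2(TPM + 0.1) the calls against day 8 were 6295 and 6306 higher and 1357 and 1229 lower, and 2635 and 2710 were lower against day 24; the shift of the median of all models goes with this, and its cause was not tested. RLE moved that median by less than 0.1. The median log2 fold change of GPiPSC-high models was 0.20 with models of no count in one group at the bound, 0.35 with RLE, 0.33 and 0.82 on the TPM scales, and 0.32 to 0.57 with a library left out. That of PF-high models was -0.28 with RLE, 0.41 and 0.52 on the TPM scales, where it reversed, and -0.20 to -0.15 with a library left out. Control day 16 was placed at 18.4% and 25.5% on GPiPSC-high models and -2.74% and -1.91% on PF-high models on the TPM scales. Stage I day 8 was placed at -6.66% and -1.78% on GPiPSC-high models and 20.4% and 18.3% on PF-high models, and at -1.54% on the latter with RLE. The 8 named models kept their call in every fit run. No cause of these changes was tested.

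With the replicate number as a block (replicate block), 3865 models were higher and 3403 lower against stage I day 8, and 3978 and 4600 against stage I day 24. Replicate differences of stage I day 8 and control day 16 correlated at 0.09 across models and those of stage I day 24 and control day 16 at 0.10, and with 2 pairs the samples share a number and are not shown to be paired. On simulated counts, with 2 libraries in each group compared and few models changed, 6% of 2-fold differences were recovered. That share was not measured on these data, and a missing call does not show that a model was unchanged.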
